A study of Mus musculus with 22 samples.

Results

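The 8 T-cell lymphomas of Atm-deficient mice were divided by the copy number of Notch1, and the rest of their genomes was compared. Sides were chosen by the mean log2 ratio of the 6 array probes named for Notch1 in each tumour. A mean of 0.5 or more placed a tumour on the side with a Notch1 gain, which held 3 of the 8 lymphomas, out of 22 arrays in all. The other 5 lymphomas made up the side without a gain at that limit. The sides were selected on these Notch1 values, so the values are given as a description and were not tested, and the surrounding stretch of chromosome 2 from 25 to 27 Mb was kept out of every test. Gains over Notch1 that reached past that stretch still entered the tests, so differences elsewhere on chromosome 2 are not independent of the division.

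Copy number was measured by array comparative genomic hybridisation, in which 2 DNAs labelled with different dyes compete for the same probes. Thymocyte DNA of 1 Atm-deficient mouse per array, in Cy5 (red), competed with DNA of wildtype thymocytes in Cy3 (green). Atm, a kinase activated by broken DNA, was missing in all 22 mice of the series. Per the labels, 8 of them had a thymic T-cell lymphoma and 14 had no finding to the naked eye, and the mice were untreated. The design text calls the allele a knockout, and neither it nor the labels give the strain, sex or age of the mice or how the gene was altered. Each lymphoma came from a different mouse, numbered here from 1 to 8. Lymphoma mice 1, 2 and 3 carried the Notch1 gain and lymphoma mice 4 to 8 did not. A tumour sample may hold normal cells, so a log2 ratio is an average over the cells in the sample, and the share of altered cells was not measured.

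Notch1 encodes a cell-surface receptor that steers early thymus progenitors to the T-cell fate. Binding of a ligand lets ADAM proteases and then the gamma-secretase complex cut the receptor. The released intracellular part enters the nucleus, binds Rbpj and Maml proteins and switches on genes such as Hes1, Dtx1, Nrarp and Myc. Activating changes of Notch1 are common in T-cell leukaemias and lymphomas of humans and mice, and in mice some arise from deletion of the 5′ end of the gene.

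The 6 Notch1 probes span chr2:26466605-26508948 in the coordinates of the array files, whose genome build the files and labels used here do not name. They are numbered from 1 to 6 by rising coordinate. RefSeq (GRCm38.p6) places Notch1 on the minus strand, and the neighbouring genes run in the same order there as in the array files. Probe 6 therefore lies toward the promoter and probe 1 toward the 3′ end, if the strand is the same in the build of the array. The files do not state whether a probe lies in an exon or an intron. Here 4 of the 6 probes are shown because 2 gains had an edge between them: probes 5 and 6 bracket the edge in lymphoma mouse 1, and probes 2 and 3 that in lymphoma mouse 4. They are written in lower case as deposited, with no part marked.
Notch1 probe 2, chr2:26473153-26473212: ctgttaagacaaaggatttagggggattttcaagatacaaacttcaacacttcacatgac
Notch1 probe 3, chr2:26484528-26484587: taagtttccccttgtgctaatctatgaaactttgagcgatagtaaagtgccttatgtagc
Notch1 probe 5, chr2:26501891-26501946: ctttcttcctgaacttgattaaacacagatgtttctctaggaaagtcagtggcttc
Notch1 probe 6, chr2:26508889-26508948: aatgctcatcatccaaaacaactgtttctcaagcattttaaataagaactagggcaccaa

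Values are log2 ratios of red over green processed signal, centred on the median of each array's autosomal probes, so 0 is the array's usual copy number. Noise was measured for each array from how much adjacent probes differed. It ran from 0.15 to 0.37 in the 3 lymphomas with the gain and from 0.15 to 0.23 in the other 5, and lymphoma mouse 3 had the highest noise of the 8. Over autosomal probes the 28 pairs of lymphoma arrays correlated with a median r of 0.39. Lymphoma mouse 3 correlated at -0.44, -0.48 and -0.41 with no-lymphoma mice 3, 4 and 9. The labels state the dyes, so the direction of the ratios was kept. The mean over the Igk locus, which is rearranged in B cells, lay between -0.20 and -0.05 in all 8 tumours. DNA holds no expression marker of a cell type, so the labelled T-cell identity was not checked further.

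The mean of the Notch1 probes was 1.75 in lymphoma mouse 1, 0.89 in mouse 2 and 2.20 in mouse 3, which correspond to 3.37, 1.85 and 4.60 times the array median. In lymphoma mice 4 to 8 it was 0.30, 0.19, 0.08, 0.29 and 0.32. The tumour just inside the limit was thus mouse 2 at 0.89, and the one just outside was mouse 8 at 0.32. Among the 14 arrays of mice without a visible tumour the same mean had a median of 0.01, with a lowest value of -0.25 and a highest of 0.67. The highest, in no-lymphoma mouse 11, lay inside the range that defined a gain among the lymphomas.

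The 3 gains had 3 different shapes. In lymphoma mouse 1 the gain was broad and ended inside Notch1. It ran for 23.5 Mb from the first probe of the chromosome, chr2:3010301-26501946, and rose toward the gene. Its 9 segments, which are stretches of near-constant ratio, began at 0.55, 0.44 and 0.63 and climbed through 0.86, 1.17, 1.45, 1.65 and 1.95 to 2.19 in the last 507 kb. Probes 1 to 5 of Notch1 read 2.09, 2.06, 2.09, 2.11 and 1.93. Probe 6 read 0.25, and the segment that starts there had a mean of 0.10. The gained part of the gene was therefore that of probes 1 to 5, and the probe nearest the promoter was at the level of the sequence beyond it.

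In lymphoma mouse 2 the gain was broad and passed over the whole gene. It ran for 37.4 Mb, chr2:3010301-40447809, in 16 segments with a mean of 0.61 and a range of 0.27 to 0.85. The segment holding Notch1 had a mean of 0.81, and the 6 probes lay between 0.81 and 1.03, with no step inside the gene. Notch1 stood little above its surroundings in this tumour.

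In lymphoma mouse 3 the gain was focal. It covered 2.97 Mb, chr2:25714935-28684923, between neighbours at 0.00 before it and 0.14 after it. It had 2 levels, 1.62 over the first 805 kb, which holds all of Notch1, and 1.05 over the next 2.16 Mb. Probes 1 to 6 read 2.01, 2.04, 2.47, 2.81, 2.57 and 1.32. Probe 6 was again the lowest of the 6, but it stayed within the gain.

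**Figure D1:**
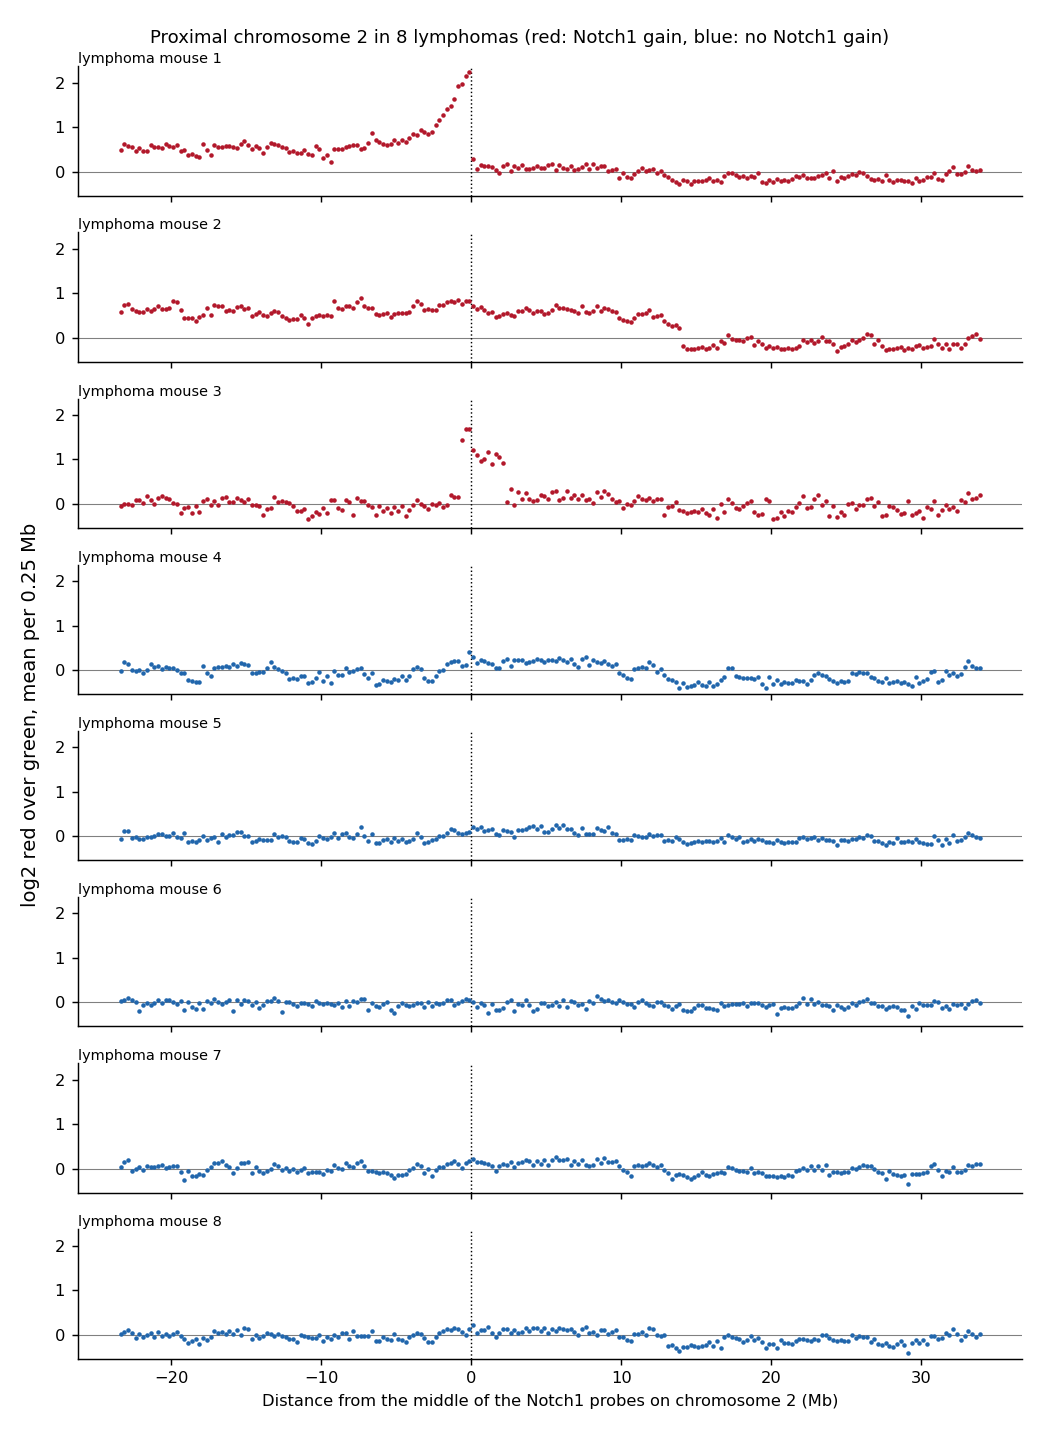
Mean log2 ratio per 0.25 Mb of chromosome 2 against the distance from the middle of the Notch1 probes (dotted line), 1 panel per lymphoma mouse (red, Notch1 gain; blue, no gain). Mouse 1 rises to the gene and falls at it, mouse 2 is raised on both sides of it for 37.4 Mb in all, mouse 3 shows a focal gain of 2.97 Mb, and mice 4 to 8 stay near 0 on this scale.

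Lymphoma mouse 4, on the side without a gain, had a small gain that also ended inside Notch1. It comprised 15 probes over 72.4 kb, chr2:26400799-26473212, with a mean of 0.78. It took in Notch1 probes 1 and 2, at 0.68 and 0.58, while probes 3 to 6 read 0.13, 0.04, -0.02 and 0.41. Its mean over the 6 probes was therefore only 0.30, below the limit. A called gain thus covered at least 1 Notch1 probe in 4 of the 8 lymphomas, and the comparisons of length, segments, chromosomes, regions, profiles and gene counts below were repeated with mouse 4 moved to the gain side, a division chosen after seeing the data. In lymphoma mice 5 to 8 the segment over Notch1 had a mean of 0.10, -0.02, 0.14 and 0.10, and no gain was called.

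**Figure D2:**
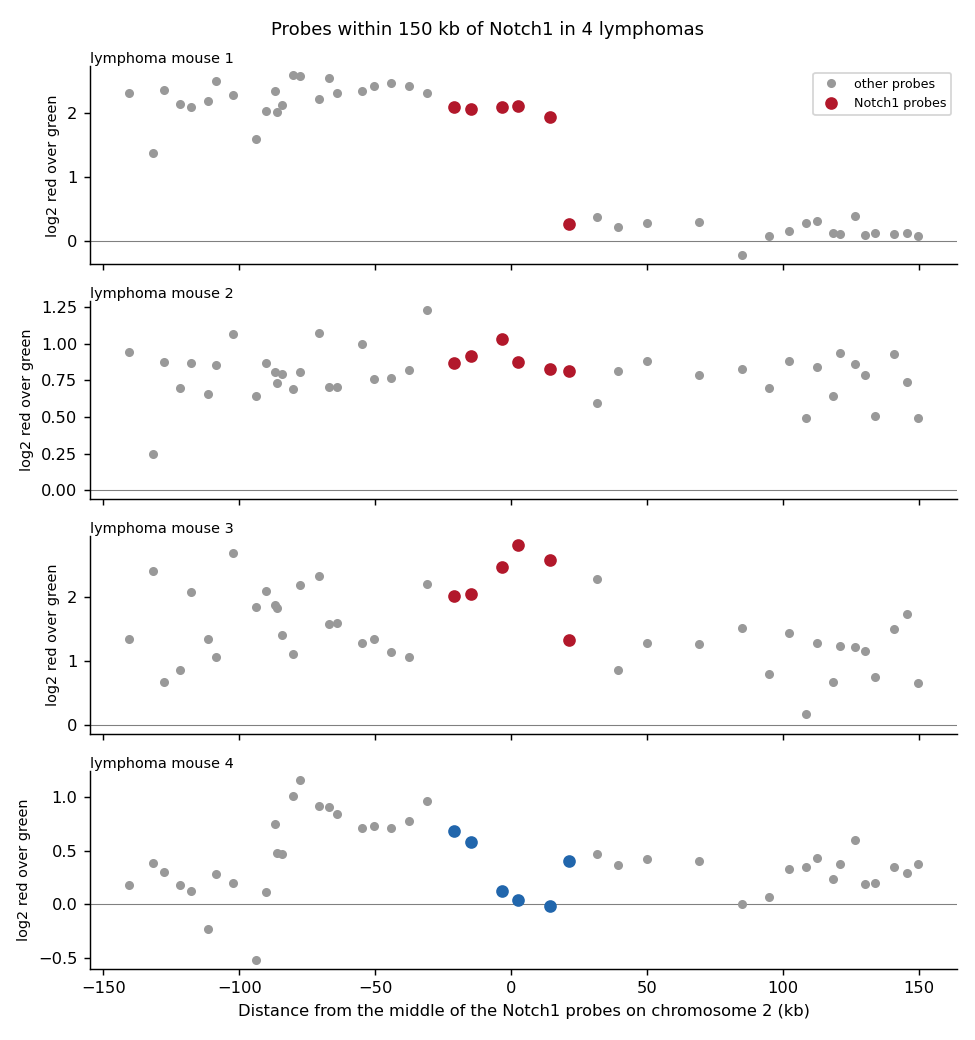
Log2 ratio of each probe within 150 kb of Notch1 (x axis, distance in kb; y axes differ between panels) in lymphoma mice 1 to 4; coloured points are the 6 Notch1 probes. In mouse 1 the sixth probe drops from about the level of the others to 0.25, in mouse 4 the level falls after the second probe, and mice 2 and 3 are raised on both sides.

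The stretch inside the gain of all 3 tumours of the gain side was chr2:25714935-26501946, 787 kb with 110 probes and 29 named genes. Its edges were set by mouse 3 on the centromere side, at Bmyc, and by mouse 1 on the other, inside Notch1. Its mean was 2.11, 0.80 and 1.62 in mice 1, 2 and 3 and lay between 0.05 and 0.21 in mice 4 to 8. The gain of mouse 4 shared 72.4 kb of it, with 8 named genes. Of these, Pmpca, a mitochondrial peptidase subunit, and Notch1 lay only partly in that gain. Among the others were Inpp5e, a phosphoinositide phosphatase, and Sec16a, which organises export from the endoplasmic reticulum. Inpp5e read 2.58, 0.75, 1.64 and 1.09 in mice 1 to 4, and Sec16a 2.35, 0.87, 1.69 and 0.85. In mice 5 to 8 Sec16a lay between 0.09 and 0.28 and Inpp5e between -0.10 and 0.42. The mean over the 72.4 kb was 0.10, 0.01 and 0.18 in mice 5, 6 and 7. It was higher, at 0.32, in mouse 8, where no gain was called. Because the rule used this stretch, these values describe the gains and support nothing.

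Other genes of the 25 to 27 Mb stretch separated the shapes of the gains. Of its 102 genes, those before Bmyc were gained in mice 1 and 2 and not in mouse 3. Traf2, an adaptor of tumour necrosis factor receptors, read 1.86 and 0.81 in mice 1 and 2 and -0.18 in mouse 3. Nrarp, a Notch target that dampens Notch signalling, has 1 probe, which read 1.32, 0.74 and 0.53 in mice 1, 2 and 3 and between -0.29 and 0.64 in the other 5, and the gain was called in mice 1 and 2 only. Beyond Notch1 the order changed. Egfl7, a secreted factor of blood vessels that hosts a microRNA, read 0.21 in mouse 1, 0.69 in mouse 2 and 0.80 in mouse 3, and a gain was called in mice 2 and 3. Outside the shared stretch from Bmyc to Notch1, the gained genes thus differed between the 3 tumours on both sides.

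Outside 25 to 27 Mb, gain on chromosome 2 was broad in 2 of the 3 tumours with the Notch1 gain. Called gain there amounted to 21.95 Mb in lymphoma mouse 1, 35.2 Mb in mouse 2 and 1.68 Mb in mouse 3. In mice 4 to 8 it was 1.80, 9.72, 0, 0 and 0.343 Mb. The length in mice 1, 2 and 3 was the rest of the same unbroken gains that hold Notch1 and set the sides. The tests of this length are therefore not independent of the division and give no separate evidence. A segment counted as gained where its mean was 0.25 or more and as lost at -0.25 or less. The sides overlapped, since mouse 3 had less than mice 4 and 5. The means were 19.6 ± 16.9 Mb (SD, n = 3) and 2.37 ± 4.17 Mb (SD, n = 5), a difference of 17.2 Mb with an exact two-sided permutation p of 0.0536 over the 56 ways to divide 8 tumours into 3 and 5. The smallest p that this design can give is 0.0179. The difference was 10.01 Mb within scan batch 1, which held mice 1 and 3 against mouse 4 alone. It was 25.5 Mb within scan batch 3, which held mouse 2 against mouse 5. Only these 2 scan days hold both sides. Mice 6, 7 and 8 therefore enter no within-batch value and no blocked difference, here or below. With the batch as a block the exact permutation p was 0.5, where 6 arrangements allow no p under 0.167. Without mouse 3 the difference was 26.2 Mb, with an exact permutation p of 0.0476, the smallest that the 21 divisions left allow. Without mouse 2 it was 9.44 Mb, with an exact permutation p of 0.143. Centring on the mode, normexp background correction, calls at 0.35 and a segmentation penalty of 5 each gave an exact permutation p of 0.0357. With mouse 4 moved to the gain side the difference was 12.7 Mb, with an exact permutation p of 0.171.

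Broad gain of the chromosome was thus not a shared trait of the side. The share of all gained Mb that lay on chromosome 2 was 12.1% in lymphoma mouse 1, 15.04% in mouse 2 and 0.995% in mouse 3. Outside 25 to 27 Mb, the called gains of the other 5 tumours on chromosome 2 did not overlap those of mice 1, 2 and 3. In mouse 5 they were distal, at chr2:139024258-139822397 and chr2:148188659-157115182, with means of 0.49 and 0.58, between losses at -0.96, -0.97 and -0.93. The losses of mouse 4 on this chromosome were shallow, from -0.31 to -0.26. Called loss on chromosome 2 was 0 Mb in mice 1, 2 and 3 and 19.4, 19.4, 0.0263, 0 and 7.14 Mb in mice 4 to 8, with an exact two-sided permutation p of 0.179. The median of chromosome 2 outside the stretch was 0.01 ± 0.02 (SD, n = 3) and -0.01 ± 0.02 (SD, n = 5), with an exact permutation p of 0.268.

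The extent of change over the autosomes overlapped between the sides and varied widely within each. Altered length outside 25 to 27 Mb was 194, 293 and 279 Mb in lymphoma mice 1, 2 and 3 and 405, 290, 262, 143 and 233 Mb in mice 4 to 8. The range of the gain side lay inside that of the other side. The means were 255 ± 53.4 Mb (SD, n = 3) and 267 ± 94.9 Mb (SD, n = 5), which differed by -11.5 Mb, with an exact two-sided permutation p of 0.875. The sign of this difference turned under 7 of 17 alternatives, with a largest value of 96.5 Mb under normexp background correction, and it was 19.1 Mb without mouse 1 and 23.0 Mb without mouse 4. Within scan batch 1, against mouse 4 alone, it was -168 Mb, and within scan batch 3, against mouse 5 alone, 2.10 Mb. With the batch as a block it was -95.2 Mb (exact permutation p = 0.333). A p that misses the threshold does not show that the sides were equal.

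Gained and lost length, taken apart, overlapped as well. Gained length was 182, 234 and 169 Mb in lymphoma mice 1, 2 and 3 and 173, 202, 171, 111 and 186 Mb in mice 4 to 8. The means differed by 26.6 Mb, with an exact permutation p of 0.446, and by 9.31 Mb once chromosome 2 was left out whole. The difference was 7.07 Mb without mouse 2 and 12.1 Mb without mouse 7. Within scan batches 1 and 3, against mouse 4 alone and mouse 5 alone, the difference was 3.14 and 31.9 Mb. Chromosome 15, which carries Myc and Il7r, contributed between 62.7 and 100.5 Mb of gain in 7 of the 8 tumours, and lymphoma mouse 8 was the exception.

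Lost length was 12.1, 58.4 and 110 Mb in lymphoma mice 1, 2 and 3 and 232, 88.2, 90.8, 32.5 and 47.3 Mb in mice 4 to 8. Mouse 4 stood far above the others, and at a call limit of 0.35 its lost length was 36.8 Mb, because most of its losses were shallow. The means were 60.2 ± 49.0 Mb (SD, n = 3) and 98.2 ± 79.1 Mb (SD, n = 5), with an exact permutation p of 0.589, and the difference of -38.0 Mb shrank to -4.51 Mb without mouse 4. It was -63.0 Mb without mouse 3 and -14.0 Mb without mouse 1. Within scan batch 1 it was -171 Mb, where mouse 4 alone made up the side without the gain. Within scan batch 3 it was -29.8 Mb, for mouse 2 against mouse 5. The number of called segments was 47, 127 and 40 in mice 1, 2 and 3 and 110, 114, 86, 55 and 52 in mice 4 to 8, with an exact permutation p of 0.696. Mouse 2 alone decided the high end of the gain side, and without it the difference of -12.1 segments became -39.9, with an exact permutation p of 0.0952. Without mouse 1 it was 0.1 and without mouse 3 it was 3.6. It was -66.5 within scan batch 1, against mouse 4 alone, and 13 within scan batch 3, against mouse 5 alone.

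**Figure D3:**
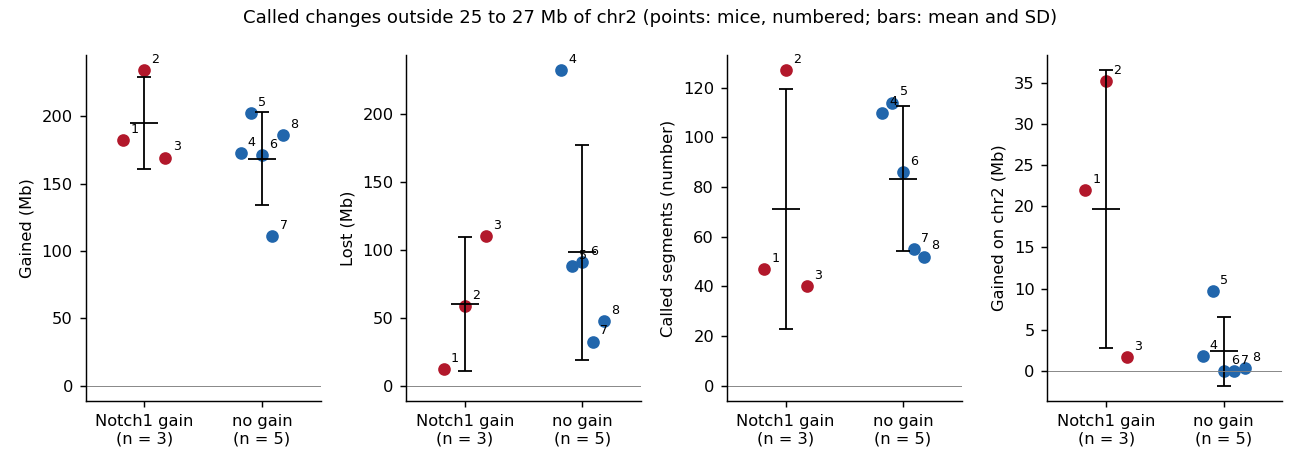
Gained Mb, lost Mb, number of called segments and gained Mb on chromosome 2, all outside 25 to 27 Mb of chromosome 2, for the 3 lymphomas with the Notch1 gain and the 5 without; points are mice with their numbers, bars the mean and SD. The sides overlap in all 4 panels, and mice 1 and 2 alone exceed 20 Mb gained on chromosome 2.

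Large changes of whole chromosome parts did not separate the sides. At least 10 Mb of chromosome 15 was gained in all 3 tumours with the Notch1 gain and in 4 of the other 5. Chromosome 1 had at least 10 Mb gained in 1 of 3 and 4 of 5, chromosome 14 in 1 of 3 and 4 of 5, and chromosome 4 in 1 of 3 and 2 of 5. At least 10 Mb of chromosome 12 was lost in 2 of 3 and 4 of 5, and of chromosome 14 in 2 of 3 and 3 of 5. A gain of this size on chromosome 2 was seen in 2 of 3 and 0 of 5. Among the changes counted here, mouse 2 gained 98.6 Mb of chromosome 4, and mouse 3 lost 70.2 Mb of chromosome 14.

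The medians of the 19 autosomes were compared in the same way, and 0 of 19 passed an adjusted p of 0.05. The sides did not overlap on 1 chromosome, 5.26% of those compared. This was chromosome 8, at -0.05 ± 0.03 (SD, n = 3) against -0.01 ± 0.01 (SD, n = 5). Its unadjusted exact permutation p was 0.0179, the smallest that the design can give, and its Benjamini-Hochberg adjusted exact p was 0.339. The difference amounted to -0.04, and mouse 2, at -0.08, had the lowest value. Called loss of at least 10 Mb on this chromosome was found once on each side, 12.3 Mb in mouse 2 and 15.9 Mb in mouse 4.

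The similarity of whole profiles did not follow the division either. Over 2387 windows of 1 Mb, the 3 pairs of tumours with the Notch1 gain correlated with a mean r of 0.466, the 10 pairs without it with 0.564 and the 15 mixed pairs with 0.540. Pairs of the same side exceeded mixed pairs by 0.00102, with an exact permutation p of 0.982, and the sign turned under 6 of 14 alternatives. The closest pair of all 28, at 0.749, was mixed: lymphoma mouse 3 with the gain and lymphoma mouse 6 without it. Both of these had lost 70.2 Mb of chromosome 14. The tumours with the 2 broad chromosome 2 gains, mice 1 and 2, correlated at 0.444.

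Regions that recur in these lymphomas were then examined, each as the mean of the probes within 500 kb of a marker gene. The 12 markers were taken from earlier results on the same tumours, so the list is no independent evidence of recurrence. The sides overlapped in all 12 regions, and the smallest unadjusted exact permutation p was 0.161. Loss around Bcl11b, a transcription factor needed for T-cell commitment and a known tumour suppressor of T-cell lymphoma, read -0.24, -0.73 and -0.80 in mice 1, 2 and 3. It lay between -0.88 and -0.72 in mice 4 to 8. Mouse 1 had the weakest value at Bcl11b, at the imprinted gene Meg3 (-0.19) and at Dnah11, beyond the immunoglobulin heavy chain locus (-0.37).

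The region before that locus, around Akt1, a kinase of the PI3K survival pathway, went 2 ways on both sides. It read 0.57 in lymphoma mouse 1 and 1.29 in lymphoma mouse 7, and between -0.80 and -0.62 in the other 6. The mean difference of the sides was 0.00, with an exact permutation p of 0.964. Around Gnpnat1, a gene of chromosome 14 near the locus of the T-cell receptor alpha chain, all 8 tumours were high, from 2.39 to 3.12 with the Notch1 gain and from 1.86 to 3.02 without it. Both sides carried this amplification.

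Gain around Myc, the growth regulator that Notch1 can switch on, was 0.52, 0.60 and 0.58 in lymphoma mice 1, 2 and 3 and 0.54, 0.55, 0.54, 0.58 and 0.22 in mice 4 to 8. Mouse 8 had the lowest value, and the other 7 lay close together. Around Il7r, the receptor chain for interleukin 7, the values were 0.55, 0.09 and 0.58 in mice 1, 2 and 3 and ranged from 0.00 to 0.62 in the rest. Around Ncstn, the nicastrin subunit of gamma-secretase on chromosome 1, mice 1 and 2 read 0.08 and 0.12, mouse 3 read 0.70, and mice 4 to 8 read 0.72, 0.62, 0.59, 0.14 and 0.59. The difference there was -0.23, with an exact permutation p of 0.375. Gain of Ncstn thus occurred with the Notch1 gain in 1 tumour and without it in 4.

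**Figure D4:**
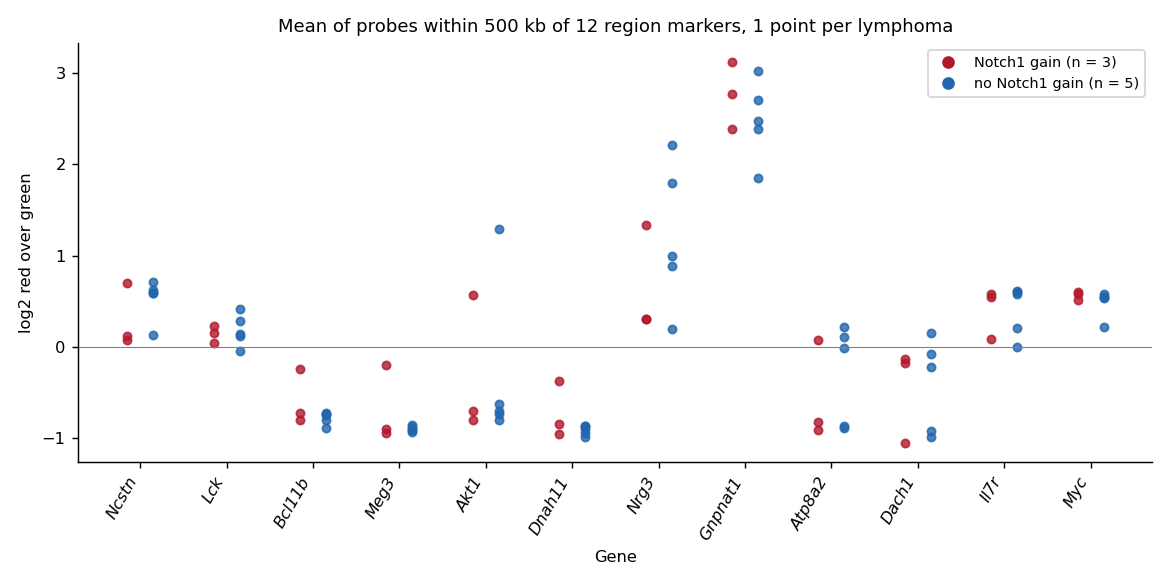
Mean log2 ratio of the probes within 500 kb of 12 marker genes, 1 point per lymphoma (red, 3 with the Notch1 gain; blue, 5 without). The sides overlap at every marker, and mouse 1 is the red point nearest 0 at Bcl11b, Meg3 and Dnah11.

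Gene by gene, limma (lmFit and eBayes on gene means, Benjamini-Hochberg adjustment over all 12964 autosomal genes with at least 3 probes outside the stretch) called 0 genes at an adjusted p of 0.05, 0.0% of those tested. The smallest adjusted p from limma was 0.868. At an unadjusted p under 0.05 there were 231 genes, 1.78%, of which 207 (1.6%) were higher with the Notch1 gain and 24 (0.185%) lower. Of the 207, 100 lay on chromosome 2. The values of the 2 sides did not overlap for 157 genes that were higher (1.21%) and 56 that were lower (0.432%).

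The 5 genes with the smallest p in the upward direction, at most 1 per Mb, all lay on proximal chromosome 2 and did not pass. Echdc3, at chr2:6106123-6122530, read 0.52, 0.62 and 0.45 in lymphoma mice 1, 2 and 3 and -0.01, 0.04, -0.02, 0.17 and 0.02 in mice 4 to 8. The sides did not overlap, with a difference of 0.49 ± 0.07 (SE) and a limma adjusted p of 0.868. Il15ra, the alpha chain of the interleukin 15 receptor, read 0.52, 0.67 and 0.32 against a range of -0.04 to 0.14, a difference of 0.45. The others were Prpf18, a splicing factor (0.48), Mrc1, the mannose receptor of macrophages (0.45), and BC061194 (0.58), each with a limma adjusted p of 0.977. In mouse 3 the segment over these genes had a mean of 0.00 and no gain was called, so that only mice 1 and 2 carried called gains of them.

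The 5 downward genes with the smallest p did not pass either. They were Cyp2b13, a cytochrome P450 (-0.17), Pnpla6, a phospholipase of nerve cells (-0.18), Srsf10, a splicing factor (-0.21), Crisp1, a sperm protein (-0.19), and AK158658 on chromosome 1 (-0.39), all with a limma adjusted p of 0.977. For AK158658 a gain was called in 1 of 3 tumours with the Notch1 gain and in 4 of 5 without it. None of the differences among these 5 came from a call shared by a whole side.

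Leaving out lymphoma mouse 3, the noisiest array and the tumour with the focal gain, changed the count. Limma then called 71 genes as higher at an adjusted p of 0.05 and 0 as lower, with a smallest adjusted p of 0.00972. All 71 lay on chromosome 2 between 3.04 and 24.8 Mb, with differences of 0.51 to 0.99 and a median of 0.60. They lie in the stretch that the broad gains of mice 1 and 2 share. Those gains hold Notch1 and placed both tumours on the gain side. The 71 genes therefore restate the division and are no separate evidence. In each other alternative that kept mouse 3 the count was 0.

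Calls per gene gave the same division of chromosome 2. No gene outside the stretch was called gained, and none lost, in all 3 tumours of the gain side and in 0 of the other 5 (0.0% in each direction). Gains called in 2 of 3 and in 0 of 5 were found at 109 genes (0.841%), and all 109 lay on chromosome 2. Every called gain of mice 1, 2 and 3 on that chromosome was part of the gain over Notch1 that set the sides. Losses called in 2 of 3 and 0 of 5 were found at 5 genes (0.0386%): Skint2, Skint10 and Skint11, of a family expressed in skin and thymus, Csmd1, and DQ117583. In the opposite direction, 6 genes (0.0463%) were gained in 0 of 3 and in at least 3 of 5. They were Bsdc1, Hdac1, a histone deacetylase, Lck, the kinase next to the T-cell receptor, Txlna, Kpna6 and AK005849, and 5 of the 6 lay on chromosome 4. Skint2, Csmd1 and the other genes of these 2 short lists were named after their values were seen.

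The other genes of the Notch pathway did not divide by side. Of 52 pathway genes besides Notch1, listed from textbook knowledge, 47 were on the array, and 32 of these were tested. Nrarp was among the 47 but lies in the stretch kept out of the test. None of the 32 passed limma's adjusted p of 0.05 or an unadjusted p under 0.05, and their median difference was 0.03, against 0.02 over all 12964 genes tested. A gain was called in at least 1 tumour for 15 of the 47 genes and a loss for 7 of the 47. Over the 12964 genes tested the counts were 3735 (28.8%) and 1136 (8.76%). The share with a loss was thus higher among the 47, a difference that was not tested. The sets are not alike, since the 47 include genes with fewer than 3 probes and Nrarp, which the 12964 leave out. Nrarp is among the 15 through the gains that set the sides. Per tumour between 3 and 9 of the 47 were gained (6.38% to 19.1%) and between 0 and 2 lost (0% to 4.26%). The shares over all genes tested were 6.33% to 11.2% gained and 0.355% to 3.52% lost in the same tumours.

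Of the other receptors, Notch2 had a mean of 0.11 with the Notch1 gain and 0.09 without it. For Notch3 the means were 0.14 and 0.06, and for Notch4 -0.04 and 0.01. The lowest value of the 3 was that of Notch3 in lymphoma mouse 6, at -0.52. No gain or loss of these 3 receptors was called in any of the 8 tumours. Of the ligands, 3 of 5 were on the array and only Jag1 was tested. It read 0.11, 0.01 and -0.33 in lymphoma mice 1, 2 and 3 and between -0.91 and 0.09 in the others, and its lowest value, in mouse 5, lies in one of the distal chromosome 2 losses. Copy number change of the receptor was thus limited to Notch1 among the 4 Notch genes under these calls.

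Genes that cut or modify the receptor were measured for 14 of 14 and tested for 10. Adam10, the protease of the first cut, was lost in mouse 3 at -0.74 and lay between -0.01 and 0.04 in the other 7. Mfng, a sugar transferase that tunes ligand choice, lies on chromosome 15 and read 0.45, 0.56 and 0.92 with the gain and from 0.11 to 0.59 without it. The gene mean of Ncstn differed by -0.28. None of the 10 differences passed.

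Among the 6 nuclear partners on the array, 5 were tested. Kat2b, an acetyltransferase, was lost in lymphoma mouse 4 at -0.82 and was between -0.24 and 0.17 in the others. Ep300, a second acetyltransferase, on chromosome 15, was gained in 3 of 3 and 4 of 5 tumours. Crebbp differed by -0.02. Rbpj, the DNA-binding partner of the Notch1 intracellular part, had means of 0.06 and 0.07. The median difference of the 5 genes was 0.01.

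All 11 targets were on the array, but only 4 had the 3 probes needed for the test. Dtx1 differed by 0.10, Igf1r by 0.03 and Il7r by 0.02, and none passed. Of the negative regulators, 10 of 11 were on the array and 9 were tested. Spen, a corepressor at Rbpj, was lost in lymphoma mouse 2 at -0.68 and gained in 2 tumours of the other side, with a difference of -0.33. Numb, an endocytic adaptor that restrains Notch, differed by 0.11. Fbxw7, the ubiquitin ligase subunit that marks the Notch1 intracellular part for destruction, had means of 0.03 and -0.03, and no loss of it was called.

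Oncogenes of T-cell leukaemia were on the array for 25 of 26, and 16 were tested. Pik3cd, a PI3K catalytic subunit on chromosome 4, read 0.33, 3.42 and 0.47 in lymphoma mice 1, 2 and 3 and 0.39, 0.16, -0.04, 0.24 and 1.49 in mice 4 to 8. A high gain thus stood in 1 tumour of each side, mice 2 and 8, and the difference of 0.96 had a limma adjusted p of 0.977. Akt2 did not overlap, at 0.11, 0.15 and 0.17 against -0.08 to 0.08, a difference of 0.15, but no gain of it was called. Abl1, a tyrosine kinase gene at chr2:31768842-31810706, was called gained only in mouse 2, at 0.75, where the broad gain reaches it, while mouse 3 read 0.43 without a call. The median difference of the 16 genes was 0.08.

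Tumour suppressors and T-lineage regulators were on the array for 19 of 23, all of them tested. Gata3, a T-cell transcription factor at chr2:9797092-9812663, lies inside the broad gains. It read 0.61 and 0.88 in lymphoma mice 1 and 2, 0.28 in mouse 3 and 0.12 to 0.29 in mice 4 to 8, and its unadjusted limma p of 0.0177 became 0.977 after adjustment. Runx1, a T-lineage transcription factor, was at 1.91 in mouse 1 and between -0.22 and 0.29 in the others, and Cdkn2a, a cell cycle inhibitor, was at -1.02 in mouse 3 and 0.48 in mouse 2. The median difference of the 19 genes was 0.08. Of these 19, 1 gene, Gata3, had an unadjusted limma p under 0.05, and in the 16 oncogenes 1, Akt2, against 1.78% of all genes tested. Gata3 lies in the gains of mice 1 and 2 that set the sides, so it is no separate evidence. Those gains also enter the 1.78%. With all of chromosome 2 left out, 131 of 11962 genes had an unadjusted limma p under 0.05.

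**Figure D5:**
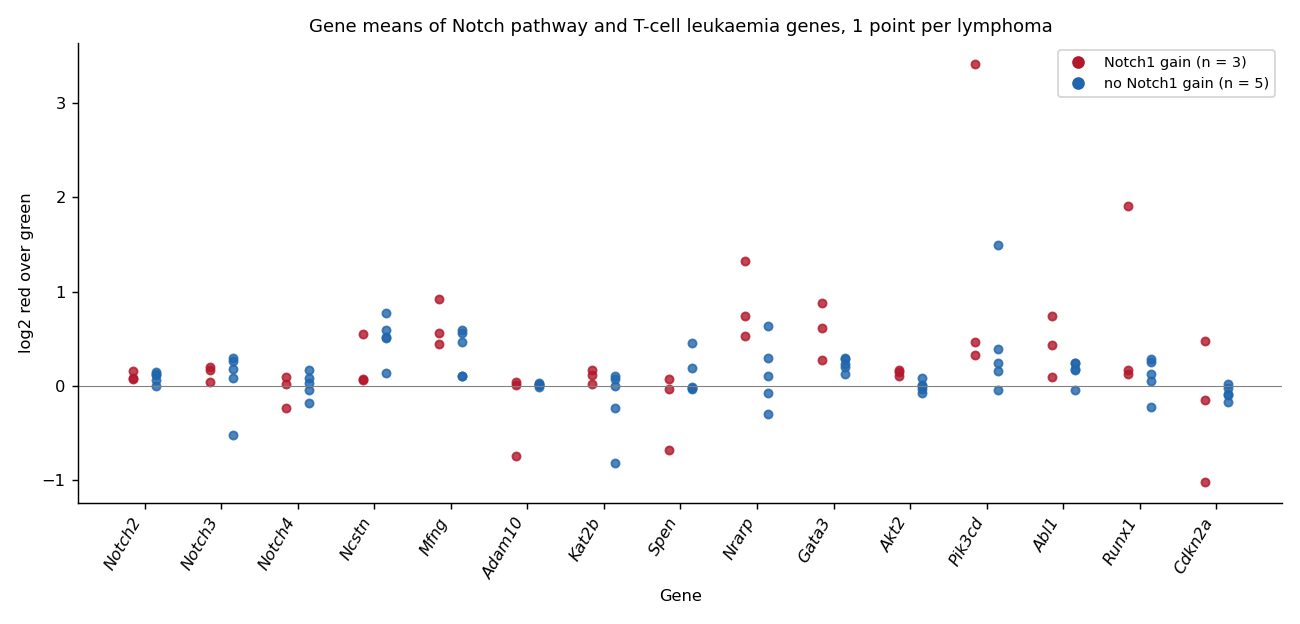
Mean log2 ratio of 15 Notch pathway and T-cell leukaemia genes, 1 point per lymphoma (red, 3 with the Notch1 gain; blue, 5 without). Single tumours stand out at Pik3cd (mouse 2, 3.42) and Runx1 (mouse 1, 1.91), and among the plotted genes that were tested only Akt2 shows sides that do not overlap.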

How the data were processed

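Each array was 1 mouse, grouped per the labels' titles. The deposited files give each spot's intensity in both dyes, and the authors' processed intensity is background-subtracted and dye-normalised by Feature Extraction 9.1.3.1, per the file headers (Agilent Feature Extraction 9.1 per the submitters' processing notes). Per the labels' protocols, DNA from caesium chloride ultracentrifugation was digested by AluI and RsaI, and Klenow enzyme added the dyes. No dye was swapped, so genotype and dye cannot be told apart.

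Log2 ratios of 235402 probes, 220065 of them autosomal with a median spacing of 7850 bases, were centred on each array's autosomal median. Spots not well above background made up 0.089% to 1.54% of an array. Segments came from optimal partitioning (penalty factor 3, at least 5 probes) run with numba 0.67.0 and numpy 2.4.6 under Python 3.11.15. Segments called in the same direction in at least 11 of 22 arrays, and antigen receptor loci, were left out of altered length and segment number. Gene names come from the array files, 12191 matching a RefSeq symbol and 3604 a synonym. Genes went through limma 3.58.1 (R 4.3.3), other values through exact permutation tests over arrays. Methods were tested on simulated data. The alternative normexp correction used median spot signals, since most files hold no mean signal.

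Named genes were all of those in the gained stretch, the list members with sides that do not overlap or with the 3 largest differences (some are not reported here), and the 5 genes of smallest p in each direction. The members and lists were chosen with earlier results of these data known. Precision is limited by how many arrays there are. Scan batches are days of scanning, taken from the file headers.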

Additional observations from a re-analysis of the deposited data

Results flagged for a closer look

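Among the 76 groups of values checked for a single sample far from the others, chance alone marks about 1 in 20, and no explanation was tested for any of the following. Lymphoma mouse 4 stood apart among all 8 tumours in lost length, at 232 Mb. It also stood apart in the median of chromosome 19, at -0.12, against the 5 tumours without the Notch1 gain and against all 8, and in that of chromosome 4, at 0.13, among those 5. Lymphoma mouse 5 stood apart among those 5 in gained length on chromosome 2, at 9.72 Mb.

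Lymphoma mouse 1 stood apart among all 8 at 3 chromosome 12 regions, with the weakest loss around Bcl11b (-0.24), Meg3 (-0.19) and Dnah11 (-0.37). Lymphoma mouse 7 stood apart among the 5 without the Notch1 gain around Akt1, at 1.29, and around Ncstn, at 0.14.

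Lymphoma mouse 8 stood apart around Myc, at 0.22, and in the medians of chromosome 15, at 0.15, and chromosome 10, at 0.10, each among the 5 tumours without the Notch1 gain and among all 8. Its chromosome 16 median, at 0.12, stood apart among those 5. Lymphoma mouse 3 had the highest noise of the 8, at 0.372.

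Outside the comparison, the array of no-lymphoma mouse 11 had a Notch1 mean of 0.67, above the 0.5 that defined a gain among the lymphomas, although no tumour was visible. Its gain covered 28.9 Mb of chromosome 2 in 3 segments with a mean of 0.37. The next highest of the 14 was 0.49.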

How the results depend on the processing

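Of 156 recomputed values, 130 kept their direction and their side of the threshold. No paired analysis was possible because the mouse numbers in the labels are not shared between groups. Altered length, which differed by -11.5 Mb, reversed to 24.5 Mb with centring on the mode, 96.5 Mb with normexp, 20.5 Mb with calls at 0.35, 2.88 Mb with a penalty of 5 and 60.4 Mb with the gain side set by any called Notch1 probe, a division chosen after seeing the data. Leaving out 1 tumour at a time gave -42.3 to 23.0 Mb, reversed without mouse 1 (19.1 Mb) and mouse 4 (23.0 Mb). Gained length reversed to -11.0 Mb with the limit at 0.25 and ranged from 7.07 to 39.5 Mb with 1 tumour left out, and lost length to 23.4 Mb with normexp and 38.5 Mb with the any-probe division. The segment difference reversed to 4.25 with that division and 0.667 with a penalty of 5, and ranged from -39.9 to 3.6 with 1 tumour left out, reversed without mouse 1 (0.1) and mouse 3 (3.6). Gained length on chromosome 2 passed an exact permutation p of 0.05 at 19.5 Mb (mode), 17.5 Mb (normexp), 17.3 Mb (calls at 0.35) and 17.7 Mb (penalty 5), and ranged from 9.44 to 26.2 Mb with 1 tumour left out. This length includes the rest of the gains that set the sides, so its tests are not independent of the division. With the limit at 0.25 it was 5.31 Mb, with an exact permutation p of 0.714. Profile similarity reversed to -0.0312 with the any-probe division and -0.00534 without chromosome 2, and ranged from -0.0289 to 0.0208 with 1 tumour left out, reversed without mouse 4 (-0.0289), 5 (-0.0141), 7 (-0.00633) and 8 (-0.00953). Genes called ranged from 0 to 71 with 1 tumour left out. The 71 came only without mouse 3 and lay inside the gains over Notch1 that set the sides. Under the other limma settings the count was 0, with 131 to 896 at an unadjusted p under 0.05. The cause of these changes was not tested.

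The limits are the 8 tumours, which allow no exact p under 0.0179, a share of normal cells in each tumour that was not measured, and an array of lymphoma mouse 3 with more noise than the other 7.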

Other observations

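The T-cell receptor loci, which were kept out of the altered lengths, also varied within both sides. The Tcra/Tcrd locus had a mean log2 ratio of -0.51, 2.12 and 1.30 in lymphoma mice 1, 2 and 3 and 1.39, 1.72, 0.75, 1.44 and -0.26 in mice 4 to 8. The low values were in 1 tumour with the Notch1 gain and 1 without it. The Tcrb locus was lowest in mice 2 and 5, at -1.71 and -1.42, again 1 of each side. These are values over whole loci, both DNAs came from thymocytes, which rearrange these loci, and no test was run.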
